A study of Mus musculus with 12 samples.

Results

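The genes described here encode the proteins of the cytosolic ribosome. They were taken by name from the authors' gene table: protein-coding genes whose symbol begins with Rpl or Rps and a digit, together with Rpsa, Rplp0, Rplp1 and Rplp2, without the Rps6k kinases and without symbols that contain -ps. The rule found 86 genes of 54532. Of these, 31 encode proteins of the small subunit, 43 encode proteins of the large subunit and 3 encode the stalk of the large subunit, and these 77 are called core genes below. Another 7 are paralogs of core genes (Rpl3l, Rpl10l, Rpl22l1, Rpl36al, Rpl39l, Rps27l and Rps27rt). The last 2, Rps19bp1 and Rpl7l1, match by name only, since Rps19bp1 encodes a binding partner of Rps19 and Rpl7l1 encodes a relative of Rpl7 associated with assembly of the large subunit. The rule left out 10 Rps6k kinase genes and 8 genes with -ps in the symbol.

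RNA was sequenced from eosinophils sorted from the spleens of IL-5tg_4get/C57BL/6 mice as cells of high side scatter that carried the 4get reporter. IL-5tg mice overproduce interleukin-5, the main growth factor of eosinophils, and 4get mice carry a fluorescent reporter at the interleukin-4 gene. All cells came from this strain and were cultured for 4 h. The first group received anti-Siglec-F antibody at 5 µg/mL together with interleukin-33 (IL-33) at 10 ng/mL, and it is called the combined group. The second received 10 ng/mL of IL-33, an alarmin cytokine. The third received 5 µg/mL of the antibody alone. Its target Siglec-F is a surface lectin of mouse eosinophils that binds sialic acid and inhibits the cell. The fourth received a rat IgG2a isotype control antibody. Whether the IL-33 wells also held the isotype antibody is not given in the labels. Each group had 3 libraries. The labels do not say whether these came from separate animals or cultures, so a p-value here reflects only how far these libraries scatter, and that scatter may be technical.

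The cytosolic ribosome consists of a small subunit, which decodes the messenger RNA, and a large subunit, which joins amino acids. Its stalk, built from Rplp0, Rplp1 and Rplp2, recruits translation factors. Most ribosomal protein mRNAs begin with a C followed by a run of pyrimidines, the 5′ terminal oligopyrimidine (TOP) tract, through which mTORC1 signalling and the protein Larp1 control their translation and stability. Ribosomal protein mRNAs are usually abundant and tend to be regulated together.

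Start sites from RefSeq (GRCm38.p6) were matched for 66 of the 86 genes, 57 of them core. An annotated start at C followed by 4 or more pyrimidines was present in 12 of the 57 core genes (21.1%), against 2.51% of all 32851 promoters in the same table. The 9 core sequences below have tracts of 7 to 13 bases. The sequences of 3 genes that were called as changed follow them. None of these 3 has such a tract at its annotated start, and neither do 45 of the 57 core genes. Each has 30 bases before the start and 20 bases from the start on, with the tract in capitals.
Rpl15: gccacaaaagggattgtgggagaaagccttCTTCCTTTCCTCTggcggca
Rpl28: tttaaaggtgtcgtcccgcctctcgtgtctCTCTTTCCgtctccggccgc
Rpl35: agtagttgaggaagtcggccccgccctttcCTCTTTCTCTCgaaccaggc
Rpl38: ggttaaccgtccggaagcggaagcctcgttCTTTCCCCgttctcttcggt
Rps10: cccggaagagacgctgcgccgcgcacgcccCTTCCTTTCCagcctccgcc
Rps15a: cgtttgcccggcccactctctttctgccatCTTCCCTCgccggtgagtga
Rps18: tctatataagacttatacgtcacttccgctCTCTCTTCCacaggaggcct
Rps27: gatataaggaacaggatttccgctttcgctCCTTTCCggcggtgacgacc
Rps6: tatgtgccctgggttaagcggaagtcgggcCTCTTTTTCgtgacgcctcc
Rpl3l: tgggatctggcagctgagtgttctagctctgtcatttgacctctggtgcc
Rpl7l1: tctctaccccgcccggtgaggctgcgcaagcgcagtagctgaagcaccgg
Rps27l: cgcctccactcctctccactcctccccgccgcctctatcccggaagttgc

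The printed stretches lie at chr14:18270967-18271016 (Rpl15, minus strand), chr7:4792935-4792984 (Rpl28, plus), chr2:39005112-39005161 (Rpl35, minus), chr11:114668550-114668599 (Rpl38, plus), chr17:27635225-27635274 (Rps10, minus), chr7:118116128-118116177 (Rps15a, minus), chr17:33955646-33955695 (Rps18, minus), chr3:90213629-90213678 (Rps27, minus) and chr4:86857348-86857397 (Rps6, minus). Those of the 3 called genes lie at chr17:24727796-24727845 (Rpl3l, plus), chr17:46782637-46782686 (Rpl7l1, minus) and chr9:66946056-66946105 (Rps27l, plus). A C with 4 pyrimidines after it began within 10 bases of the annotated start in 54.4% of the 57 core genes and in 30.7% of all promoters. The letters CCGGAA, the core of ETS family motifs, occurred on either strand of the 300-base window (250 bases before the start and 50 from it) in 50.9% of core genes and in 14.9% of all promoters. The letters AAGATGGC, the core of the YY1 motif, occurred on either strand in 7.02% of core genes and in 2.75% of all promoters.

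Total counts per library lay between 11686603 and 17137988, and the 86 genes received 211321 to 684815 of them. Combined libraries 2 and 3 differed from the other 10 in ways the labels do not explain. In them 15555 and 29990 genes had at least 1 count, against 19138 to 24485 genes in the other libraries. Defining eosinophil markers were present throughout, with a sum over 7 markers of 3931 to 10580 CPM (counts scaled by library size and TMM factors) in the combined group, 3329 to 5927 with IL-33, 4293 to 8088 with anti-Siglec-F and 4083 to 8080 with isotype. The markers did not move together. Combined library 3 had the highest Prg2 (5372 CPM), Ear1 (1473) and Ear2 (1233) of all 12 libraries. Its Siglecf (572 CPM), Ccr3 (1328) and Il5ra (71.2) lay below all 3 isotype libraries, and its Epx lay within their range. The low values were not particular to this library. Siglecf and Il5ra also lay below all 3 isotype libraries in combined library 1 (606 and 104.5 CPM) and library 2 (673 and 104.1 CPM). IL-33 library 2 was lower still for Siglecf, Ccr3 and Il5ra (535, 1286 and 49.1 CPM). Mitochondrially encoded genes took 1.10% to 2.86% of counts, with 1.32%, 2.56% and 1.10% in combined libraries 1, 2 and 3. Combined libraries 2 and 3 thus lay toward opposite ends of this range.

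The 86 genes took a larger share of the counts in 2 of the 3 combined libraries than in any other library. The share was 1.78%, 3.45% and 4.00% in combined libraries 1, 2 and 3. It was 1.83%, 2.46% and 1.69% with IL-33, 2.12%, 1.81% and 2.24% with anti-Siglec-F, and 1.96%, 2.71% and 2.07% with isotype. Combined library 1 thus lay below all 3 isotype libraries, while libraries 2 and 3 lay above them. The mean was 3.08% ± 1.16 in the combined group, 1.99% ± 0.411 with IL-33, 2.06% ± 0.222 with anti-Siglec-F and 2.25% ± 0.409 with isotype (SD, n = 3 each). The groups overlapped, and no test was run on the share.

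**Figure D1:**
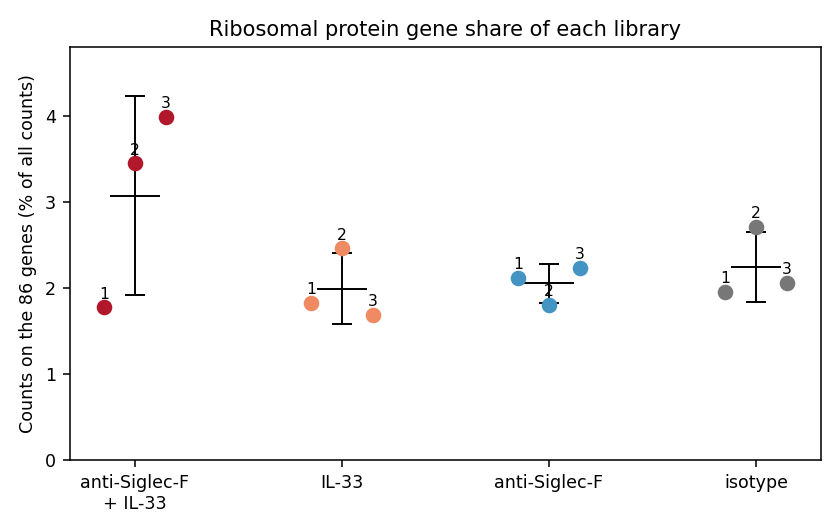
Share of all counts that fell on the 86 ribosomal protein genes, in percent (y axis), for the 3 numbered libraries of each group (x axis). Horizontal lines are means and bars are 1 SD. Combined libraries 2 and 3 sit at 3.45% and 4.00%, and the other 10 libraries lie between 1.69% and 2.71%.

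Gene by gene the core set behaved as a block. Relative to the isotype mean, the median over the 77 core genes was 0.885-fold in combined library 1, 1.72-fold in library 2 and 2.22-fold in library 3. Combined libraries 2 and 3 were the 2 highest of all 12 libraries for 73 of the 77 core genes (94.8%), against 11.9% of the 14547 genes that passed the expression filter. Rps10, Rpl13a and Rpl24 were among the exceptions, singled out after their values were seen. Combined library 1 was within the isotype range for 49 core genes, below it for 28 and above it for 0. The libraries of the other groups also kept an order: isotype library 2 was the highest of its group for 76 core genes, IL-33 library 2 was the highest of its group for 74, and anti-Siglec-F library 2 was the lowest of its group for 74.

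**Figure D2:**
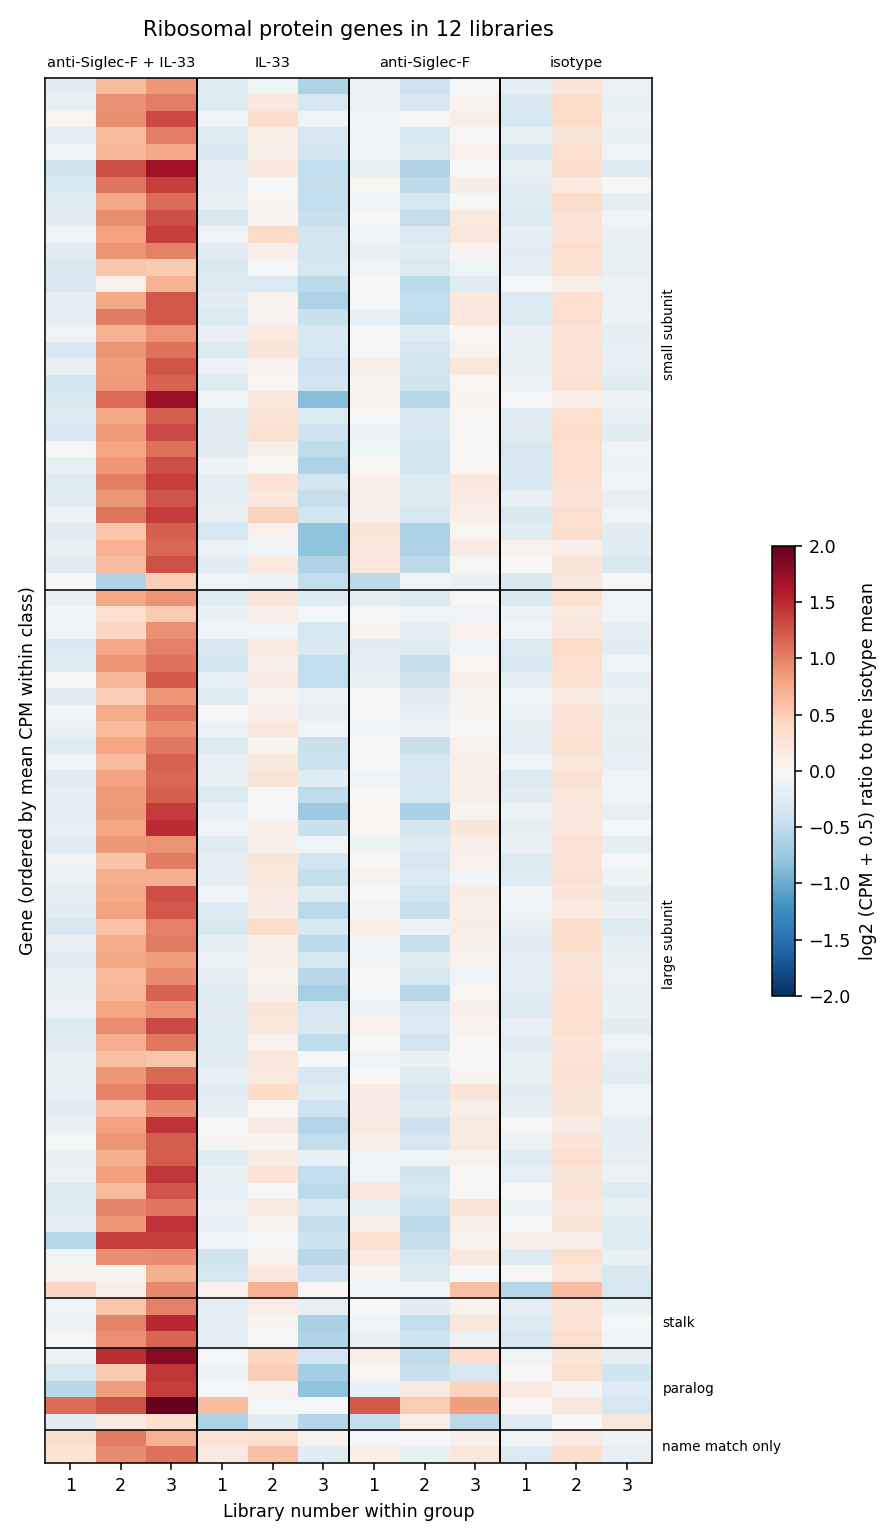
log2 ratio of each gene's CPM to its isotype mean, with 0.5 CPM added to both (colour), for the 84 genes tested (rows, by class and then by mean CPM) in 12 libraries (columns). The columns of combined libraries 2 and 3 are red for nearly every row, and that of combined library 1 is pale or blue for most core rows.

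Within the block the proportions of the individual mRNAs varied much less than their levels. For the 74 core genes that held on average over 0.1% of core counts, the share of all core counts that fell on a gene had a median coefficient of variation of 7.51% over the 12 libraries, against 39.7% for CPM. Small-subunit genes held 43.0% to 45.9% of core counts in every library, large-subunit genes 45.9% to 49.3% and stalk genes 7.51% to 8.43%. The spread of proportions was not even. Rps14, a small-subunit protein at the decoding platform, held 1.65%, 2.73% and 2.84% of core counts in combined libraries 1, 2 and 3, against 1.98%, 2.01% and 1.73% with isotype. Rpl4, a large-subunit protein that lines the exit tunnel, held 2.74%, 1.87% and 1.64% in the combined libraries, against 2.68%, 2.35% and 2.61% with isotype. Both were singled out after their values were seen, as 2 of the genes farthest from the median ratio.

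By level per length, Rplp1 was the most abundant of the 86 genes, with 2118 CPM per kilobase of exon in the combined group and 1106 with isotype. Rps3a1 (701 CPM per kilobase in the combined group and 496 with isotype), Rps15 (843 and 476) and Rplp0 (656 and 442) followed by their isotype level. The lowest isotype levels were those of Rpl10l, with 1 read in combined library 3 and 0 in the other 11 libraries, of Rpl39l, with 0.520 CPM per kilobase in the combined group and 0.321 with isotype, and of Rpl3l, with 2.96 and 0.799. Rpl10l and Rpl39l, paralogs known mainly from testis, did not pass the expression filter, so 84 genes were tested, all 77 core genes among them. Of the core genes, Rpl24, Rps10 and Rpl13a had low isotype levels of 0.995, 3.33 and 5.72 CPM per kilobase. In the GENCODE M21 annotation 47.0%, 20.6% and 35.4% of their exon bases are shared with another gene on the same strand (Gm28037, RPS10-NUDT3 and Gm45713, the last with snoRNA and miRNA genes as well), and these 3 genes had 0 counts in all 12 libraries. How reads that match several genes were counted is not given in the sources used here, so the levels of these 3 core genes are uncertain.

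Small-subunit genes are described first. Rps6, the substrate of the S6 kinases, had 285, 487 and 562 CPM in combined libraries 1, 2 and 3, against 275, 364 and 264 CPM with isotype. Its combined library 1 lay within the isotype range and the other 2 lay above it. The log2 fold change of the combined group over isotype was 0.56 ± 0.23 (SE), which did not pass the threshold (edgeR quasi-likelihood F test, Benjamini-Hochberg adjustment over 14547 genes; a gene was called at an adjusted p under 0.05). Rps3, which lies at the mRNA entry channel, had 466, 819 and 1075 CPM in the combined libraries, against 477, 631 and 484 CPM with isotype. Rps19, which is mutated in Diamond-Blackfan anaemia in humans, had 305, 557 and 834 CPM, against 280, 385 and 290 CPM with isotype. Rpsa, also known as the laminin receptor, had 477, 991 and 1076 CPM, against 427, 680 and 478 CPM. Combined library 1 lay below the isotype range for Rps3 and within it for Rps19 and Rpsa, and libraries 2 and 3 lay above it for each. None of the 3 was called. Rps27, a zinc finger protein, had 202, 558 and 838 CPM in the combined libraries, against 248, 278 and 236 CPM with isotype. It had the highest ratio to the isotype mean of all core genes in combined library 3 (3.30-fold), but combined library 1 was below all 3 isotype libraries. Rps10 departed from the block in combined library 2, with 7.67, 4.88 and 10.97 CPM in the combined libraries, against 6.14, 9.08 and 7.84 CPM with isotype. Its combined library 3 lay above the isotype range. These values rest on few reads, 58 in combined library 2 and 161 in combined library 3.

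Combined libraries 2 and 3 were again above the isotype range for the large-subunit genes given here, except for Rpl13a in library 2. Rpl3, which reaches the peptidyl transferase centre, had 186, 314 and 303 CPM in the combined libraries, against 186, 254 and 181 CPM with isotype. Rpl5 had 221, 487 and 498 CPM, against 241, 324 and 233 CPM with isotype, and Rpl11 had 195, 379 and 543 CPM, against 214, 265 and 190 CPM. Rpl5 and Rpl11 bind the 5S ribosomal RNA and, when free of the ribosome, the ubiquitin ligase Mdm2. Rpl22 had 85.8, 200.5 and 214 CPM in the combined libraries, against 95.5, 118 and 92.9 CPM with isotype. Rpl38, required in mouse embryos for translation of Hox mRNAs, had 72.6, 151 and 226 CPM, against 80.4, 97.4 and 69.3 CPM. Rpl13a, a low gene with shared exons, had 12.9, 12.5 and 20.1 CPM in the combined libraries, against 12.3, 14.3 and 9.72 CPM with isotype, so only combined library 3 was above the isotype range. None of these genes was called, with log2 fold changes between 0.33 and 0.86.

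The stalk genes had the largest class median among the core genes, with a log2 fold change of 0.77 for the combined group over isotype, against 0.70 for the small subunit and 0.67 for the large subunit. Rplp0, the stalk base, had 701, 1083 and 1480 CPM in the combined libraries, against 645, 887 and 670 CPM with isotype. Rplp1 had 511, 1097 and 1562 CPM, against 450, 666 and 538 CPM, and Rplp2 had 375, 709 and 847 CPM, against 297, 470 and 362 CPM. None of the 3 was called, and combined library 1 lay within the isotype range for each.

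**Figure D3:**
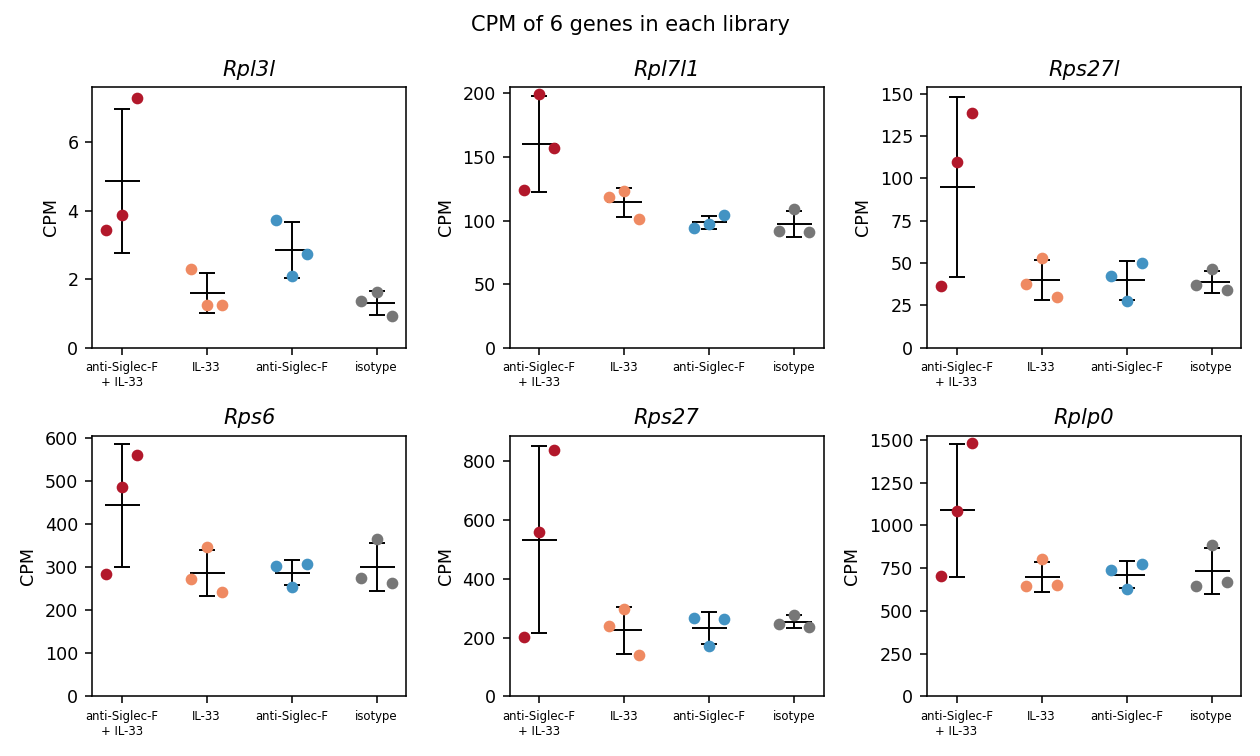
CPM (y axes, from 0) of 6 genes in the 3 libraries of each group (x axes). Lines are means and bars are 1 SD, n = 3. Rpl3l and Rpl7l1 have all 3 combined libraries above all 3 isotype libraries, while Rps27l, Rps6, Rps27 and Rplp0 have combined library 1 inside or below the isotype range.

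Across the 84 genes tested, the combined group was compared with isotype to find what both stimuli changed together. The log2 fold change was positive for 84 of 84 genes, with a median of 0.69, against −0.05 over all 14547 genes. Of the 84, 65 had an unadjusted p under 0.05, against 26.5% of all genes. After adjustment 3 were called higher and 0 lower, against 5.47% of all genes called higher and 4.41% called lower (9.88% in all). No core gene was among the 3. They were the paralogs Rpl3l and Rps27l and the name match Rpl7l1.

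Rpl3l (ENSMUSG00000002500, chromosome 17, 24727820 to 24736143 in mm10) encodes the form of Rpl3 that is typical of striated muscle. It had 3.43, 3.87 and 7.29 CPM in the combined libraries, 2.29, 1.26 and 1.26 CPM with IL-33, 3.72, 2.09 and 2.74 CPM with anti-Siglec-F, and 1.37, 1.62 and 0.941 CPM with isotype. The combined and the isotype libraries did not overlap, nor did the anti-Siglec-F and the isotype libraries. The log2 fold change of the combined group over isotype was 1.88 ± 0.43 (SE; adjusted p = 0.0156, edgeR). The call was lost without combined library 3 (1.46, adjusted p = 0.0644), without isotype library 1 (1.94, adjusted p = 0.0643) and without isotype library 3 (1.72, adjusted p = 0.0793). With combined libraries 2 and 3 both left out the log2 fold change was 1.43 and was not called.

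Rpl7l1 (ENSMUSG00000063888, chromosome 17, 46773907 to 46782672) had 124, 199 and 157 CPM in the combined libraries, 118, 123 and 102 CPM with IL-33, 94.2, 97.1 and 104 CPM with anti-Siglec-F, and 91.6, 109 and 91.0 CPM with isotype. All 3 combined libraries lay above every library of the other groups. The log2 fold change over isotype was 0.72 ± 0.17 (SE; adjusted p = 0.0180, edgeR). It was not called without combined library 2 (0.53, adjusted p = 0.0605), without isotype library 1 (0.70, adjusted p = 0.0842) or without isotype library 3 (0.70, adjusted p = 0.0870), and it was 0.40 without combined libraries 2 and 3. Rpl7 itself had 306, 496 and 654 CPM in the combined libraries, against 333, 402 and 325 CPM with isotype, and was not called.

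Rps27l (ENSMUSG00000036781, chromosome 9, 66946086 to 66949516), a paralog of Rps27 that p53 is known to induce, had 36.2, 110 and 139 CPM in the combined libraries, against 36.8, 46.2 and 33.9 CPM with isotype. Its combined library 1 lay within the isotype range. The log2 fold change was 1.28 ± 0.38 (SE; adjusted p = 0.04999, edgeR, just under the threshold). The call remained in 1 of the 6 fits that left out 1 combined or isotype library, the one without combined library 1. The adjusted p was 0.116 without combined library 2, 0.181 without combined library 3, and 0.154, 0.0822 and 0.168 without isotype libraries 1, 2 and 3. Without combined libraries 2 and 3 the log2 fold change was −0.05.

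The count of calls turned on combined library 1. Without it, 76 of the 84 genes were called higher than isotype, 70 of them core genes, against 19.1% of the genes tested in that fit called in either direction, and the median log2 fold change was 0.97. Without combined library 2 or without combined library 3 the count was 1 in each fit, against 8.42% and 6.21% of the genes tested, with medians of 0.65 and 0.37. Without both, 0 genes were called by edgeR (4.06% of the genes tested in that fit) and 2 had an unadjusted p under 0.05, the median was −0.12, and 13 of the 85 genes then tested had a positive log2 fold change. That fit has 1 combined library, which is assumed to vary like the libraries of the other groups. Other settings called more genes: DESeq2 called 31 (against 16.5% of all genes) and limma voom with quality weights called 10 (9.80%), while edgeR with no expression filter called 49 of all 86 (5.52%).

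**Figure D4:**
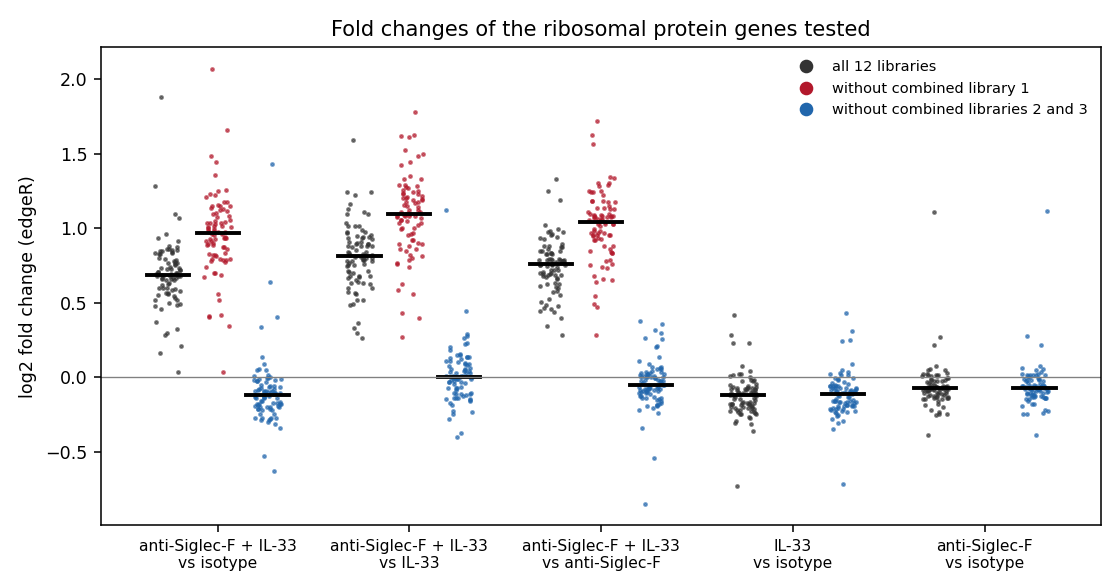
log2 fold changes of the genes tested (points) in 5 comparisons (x axis), from the fit of all 12 libraries, without combined library 1, and without combined libraries 2 and 3. Black lines are medians. Against isotype the median of the combined group is 0.69, 0.97 and −0.12 in these 3 fits. The comparisons of single stimuli, which use no combined library, are shown for the first and the last fit.

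The combined group was also compared with each stimulus alone. Against IL-33 the log2 fold change was positive for 84 of 84 genes (median 0.81, against −0.03 over all genes), and 76 had an unadjusted p under 0.05 (17.4% of all genes). After adjustment edgeR called 0 of them, against 0% of all genes, and the lowest adjusted p was 0.191. Limma voom also called 0 and DESeq2 called 21, against 3.23% of all genes. Without combined library 1, 77 were called (13.8% of all genes), and without combined libraries 2 and 3 the median was 0.00. Against anti-Siglec-F the fold change was again positive for all 84 (median 0.76, against −0.04 over all genes), and 72 had an unadjusted p under 0.05 (23.2% of all genes). Only Rpl7l1 was called (log2 fold change 0.70 ± 0.17 SE, adjusted p = 0.0365, edgeR), against 2.70% of all genes called higher and 4.42% in either direction. It stayed called in 1 of the 6 fits that left out a library of either group, with adjusted p-values of 0.139, 0.140 and 0.0873 without anti-Siglec-F libraries 1, 2 and 3, and of 0.104 and 0.0884 without combined libraries 2 and 3. Without combined library 1, 77 genes were called (18.6% of all genes), and without combined libraries 2 and 3 the median was −0.05 and 0 were called (1.37% of the genes tested). These 3 comparisons share the combined libraries, so they are not independent of each other.

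Libraries that do not overlap between groups were rare among the 84 genes. In the combined group 2 genes lay above all isotype libraries, Rpl3l and Rpl7l1, against 12% of all genes, and 0 lay below them (15.3%). Against IL-33, 4 lay above (Rpl3l, Rplp2, Rpl7l1 and Rpl36al, against 6.98% of all genes) and 0 lay below (7.07%). Against anti-Siglec-F, 4 lay above (Rpl7l1, Rplp2, Rps13 and Rps19bp1, against 10.0% of all genes) and 0 lay below (12%). For IL-33 over isotype, 0 lay above (11% of all genes) and 1 lay below (13.1%).

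No ribosomal protein gene passed the test with either stimulus alone. IL-33 over isotype had a median log2 fold change of −0.12, against −0.01 over all genes, and edgeR called 0 of the 84 genes, against 2.21% of all genes (1.46% higher and 0.749% lower). None of them had an unadjusted p under 0.05, against 13.6% of all genes. DESeq2 and limma voom called 0 as well, against 5.54% and 14.4% of all genes, and so did edgeR without combined libraries 2 and 3 (4.3%). Anti-Siglec-F over isotype had a median of −0.07, against −0.01 over all genes. EdgeR called 0 of the 84 genes, against 0% of all genes, DESeq2 and limma voom called 0 (0.0825% and 0.0687% of all genes), as did edgeR without combined libraries 2 and 3 (0.00624%). Only Rpl3l had an unadjusted p under 0.05, against 2.54% of all genes. Its log2 fold change was 1.11 ± 0.43 (SE), and its libraries did not overlap (6.73% of all genes were higher and 6.51% lower in this way). The interaction, the effect of anti-Siglec-F in the presence of IL-33 minus its effect without IL-33, had a median of 0.89, against −0.03 over all genes. It was called for 0 of the 84 genes by edgeR, DESeq2 and limma voom, against 0% of all genes by edgeR and 0.0206% by DESeq2, and 42 had an unadjusted p under 0.05 (7.91% of all genes). Without combined library 1 the count was again 0 (0.0262% of the genes tested).

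The paralogs differed in level relative to the genes they resemble. Per kilobase, Rps27l reached 18.4% to 27.2% of the level of Rps27 across the 12 libraries and Rpl22l1, the paralog of Rpl22, reached 15.3% to 30.6%. The others stayed low: Rpl3l at 1.00% to 4.65% of Rpl3, Rps27rt at 2.42% to 5.39% of Rps27, Rpl36al at 1.01% to 3.03% of Rpl36a, Rpl39l at 0% to 3.55% of Rpl39 and Rpl10l at 0% to 0.0154% of Rpl10. Rpl22l1 had 12.9, 23.6 and 44.8 CPM in the combined libraries, against 16.1, 20.5 and 12.2 CPM with isotype. Rpl36al departed from the block, with 0.950, 1.43 and 1.63 CPM, against 0.914, 1.18 and 1.49 CPM, while Rpl36a had 65.8, 133 and 134 CPM in the combined libraries, against 57.6, 87.1 and 63.4 CPM with isotype. Reads of near-identical copies could be split between them, so the values of these paralogs are uncertain.

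Ribosomal protein mRNAs are short, and length moved with the libraries that stood apart. The median summed exon length was 1736.5 bases for the 84 genes, against 3713 bases for all genes tested, and 44 of the 84 were in the shortest of 5 equal length bins of all genes and 0 in the longest. In combined libraries 1, 2 and 3 the median log2 ratio to the isotype mean was −0.14, 0.09 and 0.00 for the shortest bin and 0.03, −0.32 and −0.31 for the longest. For the core genes it was −0.18, 0.78 and 1.15. With a trend against length removed per library, the median log2 fold change of the 84 genes over isotype was 0.60, against 0.69 before. In that fit 6 were called, against 12.9% of all genes. For the combined group the median fell from 0.81 to 0.63 over IL-33 and from 0.76 to 0.57 over anti-Siglec-F. The interaction median fell from 0.89 to 0.63. The part of length in the result was otherwise not tested.

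Genes around the ribosome were counted from lists. Fau and Rack1, ribosomal proteins outside the name rule, were not called in the combined group over isotype. Fau, a small-subunit protein fused to a ubiquitin-like domain, had 556, 930 and 1432 CPM in the combined libraries, against 475, 693 and 526 CPM with isotype. Of 16 other mRNAs with a TOP tract 1 was called higher, against 5.47% of all genes. It was Naca, a subunit of the nascent polypeptide-associated complex (log2 fold change 0.66 ± 0.19 SE, adjusted p = 0.0462, edgeR). That call was lost in 5 of the 6 fits without 1 library and remained without combined library 1, with adjusted p-values from 0.0698 to 0.168 in the 5. Eef1a1, the elongation factor that brings aminoacyl-tRNA to the ribosome, had 2100, 2809 and 3010 CPM in the combined libraries, against 1901, 2271 and 1824 CPM with isotype, and Eef2, the translocation factor, had 1130, 1080 and 1123 CPM, against 1140, 1217 and 1066 CPM. Neither was called. Of 7 noncoding host genes with TOP tracts, 0 were called.

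Initiation factors were counted in the same way. Of 24 tested, 10 were called higher in the combined group than in isotype and 0 lower, against 5.47% and 4.41% of all genes. Their median log2 ratio to the isotype mean was 0.43, 0.50 and 0.56 in combined libraries 1, 2 and 3, so that all 3 libraries were higher, and 0.23, 0.24 and 0.25 in the IL-33 libraries. Eif4e, the cap-binding protein, had 56.5, 84.9 and 78.7 CPM in the combined libraries, against 28.5, 36.8 and 32.1 CPM with isotype (log2 fold change 1.18 ± 0.17 SE, adjusted p = 0.00104, edgeR). Eif1a rose by 0.97 ± 0.15, Eif4a1, the helicase of the cap-binding complex, by 0.92 ± 0.18, and Eif2s1, the regulated subunit of eIF2, by 0.77 ± 0.14 (log2, SE). The calls of these 4 remained in all 6 fits that left out 1 library. Without combined libraries 2 and 3 the list had 4 calls (4.06% of the genes tested) and a median log2 fold change of 0.48, against 0.45 with them, whereas the 84 ribosomal protein genes had a median of −0.12 and 0.69. No test of the difference between the 2 lists was made. For IL-33 over isotype 0 of the 24 were called, against 2.21% of all genes.

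**Figure D5:**
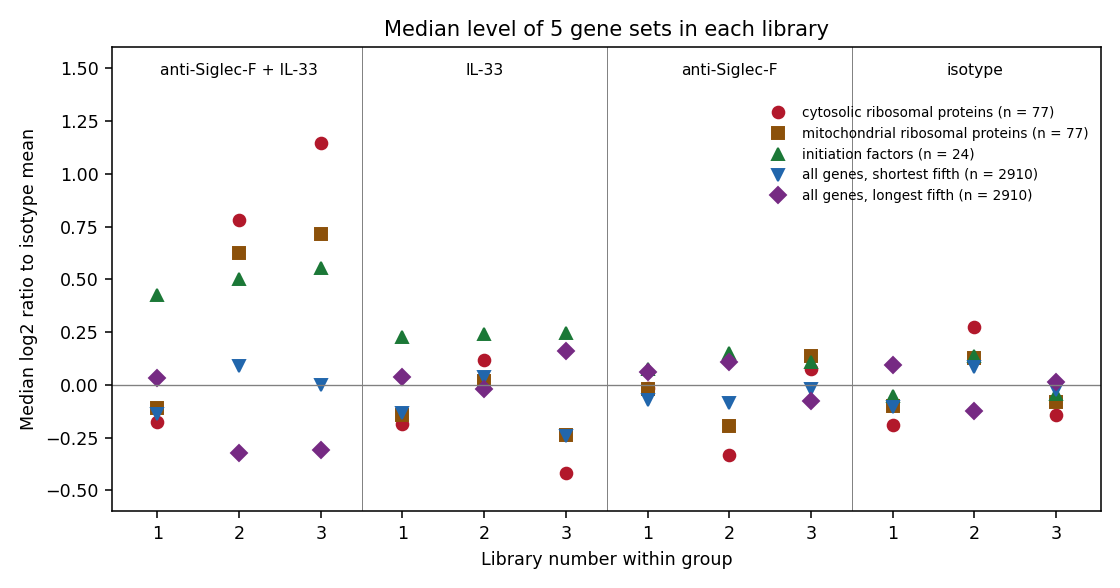
Median log2 ratio to the isotype mean (y axis) of 5 gene sets in each library (x axis, by group). In combined libraries 1, 2 and 3 the core ribosomal protein genes (circles) sit at −0.18, 0.78 and 1.15, and the initiation factors (upward triangles) at 0.43, 0.50 and 0.56.

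Among 16 regulators of mTORC1 and of TOP mRNAs, 2 were called higher in the combined group than in isotype and 2 lower, against 5.47% and 4.41% of all genes. The higher ones were Larp4b, an RNA-binding protein (log2 fold change 0.83), and Rheb, the small GTPase that activates mTORC1 (0.72). The lower ones were Tia1, an RNA-binding protein that can bind TOP mRNAs (−0.79), and Eif4ebp2, an inhibitor of Eif4e (−0.71). Their calls remained in 2, 3, 4 and 2 of the 6 fits without 1 library. Larp4b had 496, 291 and 276 CPM in the combined libraries, against 208, 183 and 205 CPM with isotype, so it was highest in the combined library with the lowest share of ribosomal protein counts. Against the same shares, 2 of 6 chaperones of ribosomal proteins tested were called higher, Grwd1 (1.28 ± 0.33 SE), a chaperone of Rpl3, and Ltv1 (0.85 ± 0.18 SE), a small-subunit assembly factor. Grwd1 remained called in 2 of the 6 fits without 1 library and Ltv1 in 5. Of 77 mitochondrial ribosomal protein genes tested, 6 were called higher and 0 lower (5.47% and 4.41% of all genes), with the order of libraries seen in the cytosolic genes: their median log2 ratio to the isotype mean was −0.11, 0.63 and 0.71 in combined libraries 1, 2 and 3. Without combined library 1, 37 were called (19.1% of the genes tested), and without combined libraries 2 and 3, 0 were (4.06%).

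Genes listed as markers of other cells were counted beside these results. All 11 monocyte and macrophage markers were detected, and their sum was 3287 to 4161 CPM in the combined group, 2562 to 3496 with IL-33, 2076 to 2424 with anti-Siglec-F and 1644 to 1902 with isotype. Of these, 2 were called higher and 1 lower in the combined group than in isotype, against 5.47% and 4.41% of all genes. Csf1r and Adgre1 made up most of the sum. Adgre1 had 1031 to 1228 CPM with isotype, and whether its reads came from the eosinophils themselves was not tested. Csf1r, Adgre1 and Vcam1 were higher in every combined library than in any isotype library. Ccr2 was lower, at 2.94 to 6.79 CPM in the combined group against 9.99 to 11.5 CPM with isotype. The other markers of this list overlapped between these groups, and C1qa stayed between 0.140 and 2.80 CPM in all libraries. The 7 erythroid markers summed to 15.5, 24.2 and 30.2 CPM in combined libraries 1, 2 and 3, against 12.9, 17.5 and 5.88 CPM with isotype. For B and plasma cells the sum of 8 markers was 597 to 899 CPM in the combined group, against 752 to 1097 CPM with isotype. The 5 stroma and endothelium markers summed to 538, 475 and 525 CPM in the combined libraries, against 288, 304 and 331 CPM with isotype, nearly all of it from Pecam1, which leukocytes also express, while Cdh5 stayed at or below 0.749 CPM. The 4 megakaryocyte and platelet markers summed to 83.9, 51.1 and 183 CPM, against 121, 92.2 and 90.9 CPM with isotype, nearly all of it from Itga2b. The 6 basophil and mast cell markers summed to 12.8 to 24.8 CPM in the combined group, against 26.5 to 38.1 CPM with isotype. Of these, Kit had 14.0, 3.20 and 7.36 CPM in combined libraries 1, 2 and 3, against 28.0, 10.3 and 15.3 CPM with isotype. Taken singly, each of the 6 markers overlapped between these groups. The sums of the neutrophil, dendritic cell and T cell lists overlapped between these groups. The part of these markers in the ribosomal protein result was not tested, and in bulk RNA a change in the number of cells of a type and a change in RNA per cell cannot be told apart.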

How the data were processed

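Members and gene lists were chosen with earlier results of these data known. For each of the 12 libraries the authors deposited raw gene counts, which are whole numbers, and a normalized signal, which is each count divided by 1 factor per library. Whole reads were recovered from the normalized file for 100% of nonzero values (relative tolerance 1e-06) and equalled the raw counts, so the count test on them called the same genes (322 for IL-33 over isotype, 1437 for the combined group over isotype and 643 for it over anti-Siglec-F). Per the submitters' processing notes, fastp, FastQC 0.11.8, STAR 2.6.1d, featureCounts 1.5.0-p3, DESeq2 and mm10 were used. Annotation release, strand setting and treatment of multi-mapping reads: not given in the sources used here, so overlapping genes and copies are uncertain.

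Tests used edgeR 4.0.16, quasi-likelihood F test (R 4.3.3): all 12 libraries in 1 fit, TMM scaling, filterByExpr by group (14547 genes), no replicate block, Benjamini-Hochberg adjustment over all genes per comparison, and a threshold of 0.05. An SE is the log2 fold change over the root of F. Descriptive log2 ratios add 0.5 CPM. Alternatives were DESeq2 1.42.0, limma 3.58.1 (voom), other scalings and filters, a length trend, the replicate block and leaving libraries out. For IL-33 and isotype, libraries with the same replicate number deviated together (correlations of 0.31, 0.43 and 0.24, all over 0.1). The labels name no pairing, so the main fit had no block and the block served as an alternative. The block changed no call among the 84 genes there.

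Named genes are every called member, the 5 highest and 3 lowest by level per length, a fixed set by role with the paralog pairs, and up to 4 called genes of each list. Others are given with their values. Some items are not reported here.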

Additional observations from a re-analysis of the deposited data

Results flagged for a closer look

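Processed pseudogenes with ribosomal protein names belong to no comparison above. They took 0.0141% of counts in combined library 2 and 0.0161% in combined library 3, above all 3 isotype libraries, whose highest value was 0.0123%. Combined library 1 was at 0.00789%. These are the libraries in which the 86 protein-coding genes took 3.45% and 4.00% of counts.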

How the results depend on the processing

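For the combined group over isotype, the count of genes called was 3 (9.88% of all genes). It became 31 with DESeq2 (16.5%), 10 with limma voom (9.80%), 49 with no expression filter (5.52%) and 6 with the length trend removed (12.9%). It became 4 with a strict filter (1654 of all 12513 genes called), 1 with library totals only (1892 of 14547) and 1 with only the groups compared (738 of 13419). With only these groups and a replicate block it was 2 (916 of 13419). Leaving out 1 library gave 0 to 76. For the combined group over IL-33, the count of 0 became 21 with DESeq2 and 54 with no filter (3.23% and 2.2% of all genes), and leaving out 1 library gave 0 to 77. For the combined group over anti-Siglec-F, the count of 1 became 38 with DESeq2 (11.2% of all genes) and 59 with no filter (4.47%). It became 2 with median-of-ratios scaling (648 of all 14547 genes called), with the length trend removed (5.49%) and with a strict filter (733 of 12513). It became 0 with library totals only (834 of 14547), with only the groups compared (242 of 13376) and with these and a replicate block (350 of 13376). Leaving out 1 library gave 0 to 77. The interaction count of 0 became 6 with no filter (0.24% of all genes). The cause of these differences was not tested.

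Without combined libraries 2 and 3 the median log2 fold change was −0.12 over isotype, 0.0029 over IL-33, −0.048 over anti-Siglec-F and 0.070 for the interaction, and Rps27l reversed to −0.055 over isotype. Leaving out 1 library kept the median positive over isotype (0.37 to 0.97), IL-33 (0.51 to 1.10) and anti-Siglec-F (0.45 to 1.04) and for the interaction (0.57 to 1.18). For IL-33 over isotype it ran from −0.27 to 0.06 and for anti-Siglec-F over isotype from −0.15 to 0.09.

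The replicate block on all 12 libraries left the counts at 3 over isotype, 0 over IL-33 and 1 over anti-Siglec-F, with medians of 0.65, 0.77 and 0.70. Of all 14547 genes, 1459, 0 and 642 were called under it in these comparisons. Rps27l was not called under it (adjusted p = 0.0699), and 1 core gene was called in its place. In no comparison other than IL-33 over isotype did every same-numbered pair correlate above 0.1. For the combined group and isotype the correlations were 0.48, 0.33 and −0.30. Whether the numbers mark pairs cannot be told from these values. Depth limits the genes under about 1 CPM, Rpl10l, Rpl39l and Rpl36al among them.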
